A study of Mus musculus with 6 samples.

Results

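Svil, Tmsb4x, Crk, Actn4 and Rhob encode proteins that organise or control the actin cytoskeleton, and their transcripts were followed here in mouse parthenogenetic embryos. The members are the probes whose platform annotation names exactly 1 gene and where that gene is one of these 5. This gave 5 of the 4742 genes that a tested probe names alone, with 10 of the 22132 probes in the table: 5 for Svil, 2 for Actn4 and 1 each for Tmsb4x, Crk and Rhob. A further 6 probes name a member beside other genes and were left out. The 5 genes were singled out with earlier results on the same contrast known, so their differences between the groups are a description and no test is attached to them.

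Unfertilised eggs in metaphase II were induced to start development without sperm, and the embryos were cultured for 60 h in KSOM medium. The first group received cycloheximide, an inhibitor of protein synthesis (spelled cyclohexamide in the labels), and cytochalasin D. The second group received strontium chloride, which makes the egg release calcium, and also cytochalasin D. The title of the series asks whether the absence of a calcium signal at activation can affect development and later transcript levels. Each group held 3 arrays, each made with RNA equivalent to 25 embryos against one commercial mouse reference RNA in the other channel. The labels give no strain, and they leave unsaid whether different arrays hold embryos of different cultures. The spread between arrays, and any p-value built on it, may therefore be technical. All embryos had met cytochalasin D, so nothing here compares exposed with unexposed embryos.

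Actin filaments grow by adding monomers at their fast-growing barbed ends, and cytochalasin D binds those ends and blocks growth. In activated eggs this keeps the polar body from being extruded, so the parthenogenetic embryo stays diploid. Thymosin beta 4, the product of Tmsb4x, holds actin monomers back from polymerising. Supervillin, from Svil, ties filaments and myosin to membranes, and alpha-actinin 4, from Actn4, crosslinks filaments. RhoB, from Rhob, is a small GTPase that acts on filament assembly, and it is made rapidly after many stimuli. Crk encodes an adaptor that links tyrosine phosphorylation to exchange factors such as those encoded by Dock1 and Rapgef1.

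Of the 5 genes, 4 had a promoter in the RefSeq table (GRCm38.p6). The stretches of 250 bases before the start of Rhob and of Crk are shown because these genes stood at opposite sides of the comparison. Each runs 5′ to 3′ on the gene's strand, and capitals mark CCAAT on either strand. Rhob lies at chr12:8500010-8500259 on the minus strand and Crk at chr11:75679009-75679258 on the plus strand.
Rhob: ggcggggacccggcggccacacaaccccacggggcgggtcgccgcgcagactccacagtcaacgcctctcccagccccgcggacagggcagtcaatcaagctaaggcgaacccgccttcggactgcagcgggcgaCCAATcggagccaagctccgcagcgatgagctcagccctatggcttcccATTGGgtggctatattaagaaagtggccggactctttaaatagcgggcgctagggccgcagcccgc
Crk: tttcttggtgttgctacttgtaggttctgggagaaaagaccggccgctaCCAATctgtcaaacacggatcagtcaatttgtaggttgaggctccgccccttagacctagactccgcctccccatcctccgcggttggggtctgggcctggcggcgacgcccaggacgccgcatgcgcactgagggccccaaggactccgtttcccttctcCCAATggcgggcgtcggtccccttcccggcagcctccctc

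Both windows held CCAAT 2 times, as did 10.1% of the 32851 promoters in the table with 2 matches or more, while 33.8% held at least 1. In Rhob the matches began 115 and 66 bases before the start, the second on the opposite strand. In Crk they began 201 and 40 bases before it, both on the gene's strand. The windows of Tmsb4x and Actn4 held no CCAAT. The GC box GGGCGG, also searched on both strands, was found 1 time each for Rhob, Crk and Tmsb4x and 3 times for Actn4, against 32.7% of all promoters with at least 1. The CArG box, the site that serum response factor binds, matched in none of these 4 windows and in 1.47% of all promoters. These are matches of letters in short windows and say nothing about binding.

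Levels are given as log2 of embryo over reference, and a difference is cycloheximide minus strontium on that scale, with the SE from the fit across all 21921 tested probes. The ratio's direction is not stated with the values. Embryo over reference is the likely reading of the sign used here, because the reference carried Cy5 and the scanner software writes red over green. If it were the opposite, each level and difference below would change sign. Against the marker lists, the limma fit placed 7 of 10 probes of the blastocyst and pluripotent list above the reference, Dppa3 among them. It placed 3 of 3 fibroblast probes below the reference, Col1a1 among them. Over all tested probes 40.3% lay above and 26.8% below. The arrays differed in spread: the interquartile range of the log2 ratios was 1.60 and 1.59 on array 3 of cycloheximide and array 3 of strontium, and 1.11 to 1.41 on the other arrays.

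Across the whole table no transcript passed the test between groups. By limma with Benjamini-Hochberg adjustment 0% of probes were called in either direction, the lowest adjusted p was 0.365, and 1319 probes had an unadjusted p under 0.05, 508 of them lower and 811 higher after cycloheximide. Without array 3 of cycloheximide there were 4242, and 2821 of these were lower. With 3 arrays a group, a missed threshold does not show that levels were alike. The 10 member probes were all tested, none held a value at 0 or at the limit of the ratio, and 0 were called. Of the 10 probes 9 differed below 0 and 1 above, and their median was -0.43. Over all tested probes 56.7% lay below 0 and the median was -0.05. In 5 member probes every cycloheximide array lay below every strontium array, a pattern held by 6.04% of all probes. In 1 member probe every cycloheximide array lay above, which 5.72% of all probes did. As the members were chosen on this contrast, nothing is read from those counts.

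**Figure D1:**
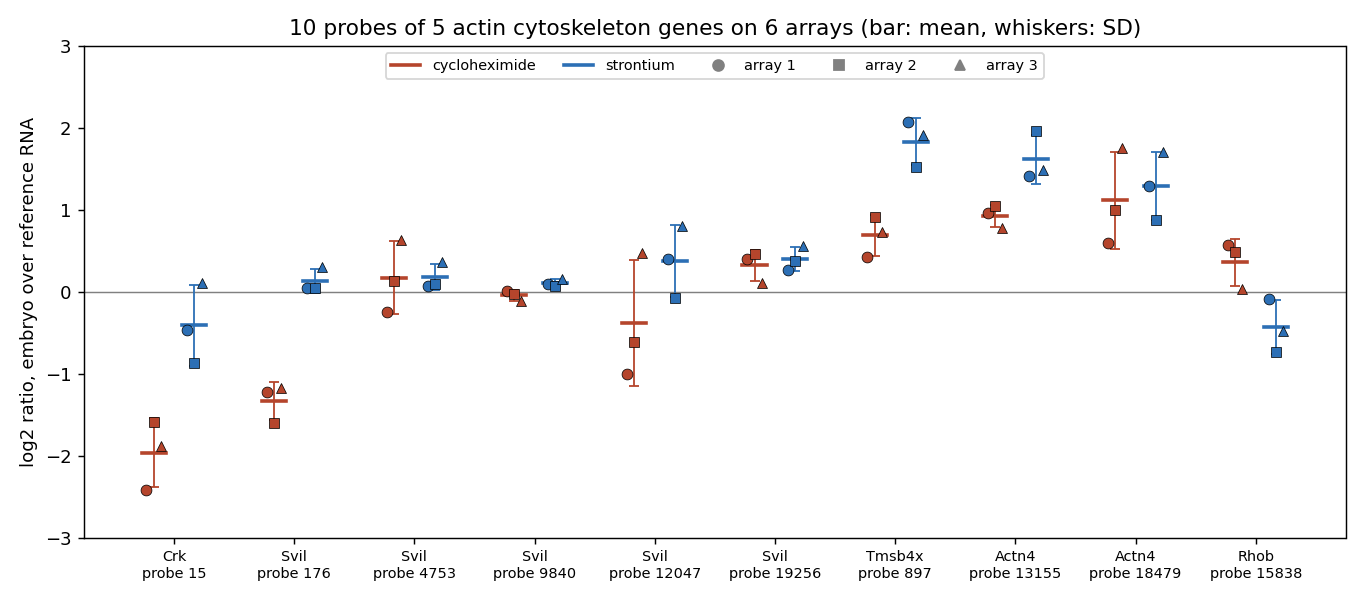
Log2 ratio of embryo over reference RNA (vertical axis) for the 10 probes of the 5 genes (horizontal axis), with 1 point per array, the group mean as a bar and the SD as whiskers. The cycloheximide arrays lie below the strontium arrays for Crk, Svil probe 176, Svil probe 9840, Tmsb4x and Actn4 probe 13155, above them for Rhob, and among them for the other 4 probes.

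Among regulators of the monomer pool, Tmsb4x was lower after cycloheximide. Its probe (number 897) read 0.42, 0.92 and 0.73 on the cycloheximide arrays and 2.07, 1.52 and 1.91 on the strontium arrays. The lowest strontium array lay 0.60 above the highest cycloheximide array, so the groups did not overlap. The means were 0.69 ± 0.25 and 1.83 ± 0.28 (SD, n = 3 each), a difference of -1.14 (SE 0.23) or 2.21-fold. Of all tested probes 0.867% had a lower difference. Tmsb10, which encodes the closest thymosin relative in the lists, was at -0.24 ± 0.16 and -0.19 ± 0.12 (SD, n = 3), a difference of -0.05 (SE 0.18), and its groups overlapped.

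Svil was read by 5 probes, and only some of them separated the groups. Probe 176 read -1.22, -1.60 and -1.18 after cycloheximide and 0.05, 0.05 and 0.30 after strontium. The gap between the groups was 1.22, the widest of the 10 member probes, and the difference was -1.46 (SE 0.20) or 2.76-fold. Probe 9840 also kept the groups apart, but its values were -0.12 to 0.01 after cycloheximide and 0.07 to 0.15 after strontium. Its difference was -0.15 (SE 0.15) and the gap 0.06, so this separation was small against its own error.

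The remaining Svil probes overlapped between groups. Probe 12047 read -1.004, -0.62 and 0.47 after cycloheximide and 0.40, -0.08 and 0.80 after strontium, a difference of -0.76 (SE 0.44). Array 3 of cycloheximide lay inside the strontium range for this probe, and without that array the difference was -1.19. Probe 4753 gave a difference of -0.0043 (SE 0.26) and probe 19256 one of -0.08 (SE 0.19). The average of all 5 probes was -0.25 ± 0.21 after cycloheximide and 0.24 ± 0.17 after strontium (SD, n = 3), a difference of -0.49 against the -1.46 of probe 176 alone. Across the 6 arrays, probe 176 followed probe 9840 (Pearson r = 0.84) and probe 12047 (r = 0.67) more closely than probe 19256 (r = 0.22) and probe 4753 (r = 0.07). These coefficients describe 6 arrays that each pair of probes shares. In the annotation all 5 Svil probes share 1 sequence record, and for 4 of them it is the only one, so the platform annotation does not say which part of the transcript each probe reads.

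The 2 probes of Actn4 did not match. Probe 13155 read 0.97, 1.04 and 0.78 after cycloheximide and 1.41, 1.96 and 1.48 after strontium, with no overlap. Its means were 0.93 ± 0.13 and 1.62 ± 0.30 (SD, n = 3), a difference of -0.69 (SE 0.21) or 1.61-fold. Probe 18479 read 0.59, 1.00 and 1.76 against 1.30, 0.87 and 1.70, a difference of -0.17 (SE 0.37). The groups overlapped fully for this probe, and array 3 of each group was the highest of its group. The r between both probes over the 6 arrays was -0.15. Without array 1 of cycloheximide the difference of probe 18479 was 0.09, and without array 3 of cycloheximide it was -0.49.

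Rhob was the member on the higher side after cycloheximide. Probe 15838 read 0.57, 0.48 and 0.03 after cycloheximide and -0.09, -0.74 and -0.48 after strontium. The groups did not overlap, but only 0.12 separated array 3 of cycloheximide from array 1 of strontium. The means were 0.36 ± 0.29 and -0.43 ± 0.33 (SD, n = 3), a difference of 0.80 (SE 0.25) or 1.74-fold. Of all tested probes 94.8% had a lower difference. Rhoa, its better known relative in stress fibre assembly, went the other way on its probe 12684: it was at -1.21 ± 0.16 and -0.81 ± 0.09 (SD, n = 3), a difference of -0.40 (SE 0.17), without overlap.

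Crk, the adaptor, gave the largest difference in size of the 10 probes. Probe 15 read -2.41, -1.59 and -1.89 after cycloheximide and -0.47, -0.87 and 0.11 after strontium. The groups lay 0.72 apart, and strontium array 3 was the only one of the 6 above the reference. The means were -1.96 ± 0.42 and -0.41 ± 0.49 (SD, n = 3), a difference of -1.55 (SE 0.34) or 2.94-fold. Of all tested probes 0.164% had a lower difference. Of the kinases, exchange factors and other partners in the same list, Abl2, a tyrosine kinase that binds actin, lay on the other side at a difference of 1.26 (SE 0.53), and Src, a membrane tyrosine kinase, at -0.32 (SE 0.21). Abl2 read 1.87 and 1.60 on cycloheximide arrays 1 and 2 but -0.06 on array 3, which was inside the strontium range.

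The probe number is given with each value because probes with low numbers leaned lower after cycloheximide in general. When the numbers were cut into 215 lines of equal length, Crk fell on line 1, Svil probe 176 on line 2 and Tmsb4x on line 9, while the other 7 member probes fell on lines 46 to 184. The other 100 tested probes of line 1 had a median difference of -0.49. That median was -0.21 on line 2 and -0.13 on line 9. The groups were apart on the lower side for 12 of the other probes on line 1, 14 on line 2 and 15 on line 9, and on the higher side for 1, 7 and 3. In the first 5 lines the share on the lower side was 18.8% and on lines 6 to 11, a bound set after the values were seen, it was 15.7%, against 5.44% on later lines. The share on the higher side was 2.94%, 3.57% and 5.85% in these blocks.

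Subtracting each array's line median took part of the difference from those 3 probes. Crk went from -1.55 to -1.39, Svil probe 176 from -1.46 to -1.29 and Tmsb4x from -1.14 to -0.91, and their groups stayed apart. For Rhob, Actn4 probe 13155 and Svil probe 12047, whose lines had medians of -0.09, 0.02 and -0.02, the values were 0.77, -0.75 and -0.78. After this step 5 member probes were apart on the lower side and 1 on the higher side, as before, against 6.40% and 5.64% of all probes. A line median removes only a shift that all probes of a line share, and the part of any finer position effect was not tested.

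**Figure D2:**
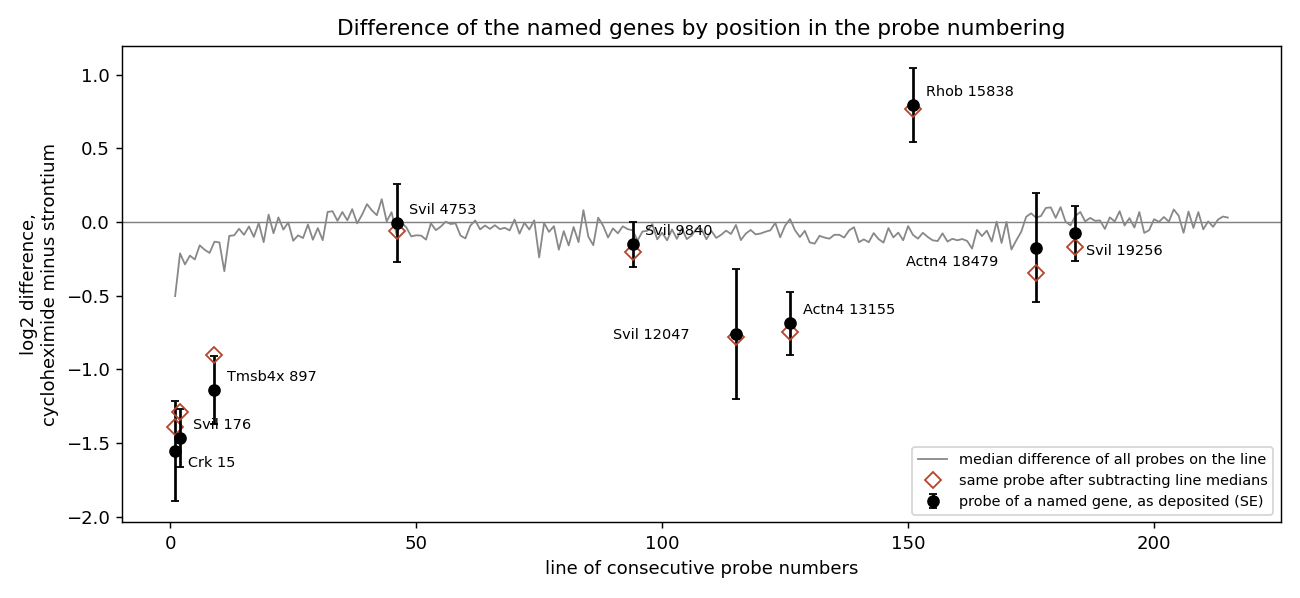
Log2 difference, cycloheximide minus strontium (vertical axis), against the line of consecutive probe numbers (horizontal axis). The grey curve is the median over all tested probes of a line. Black points are the 10 member probes with their SE, and open diamonds are the same probes after line medians were subtracted. Crk, Svil probe 176 and Tmsb4x lie on lines 1, 2 and 9 at the left end, below the curve. As the members were chosen on this difference, nothing is read from that place.

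The level against the reference RNA was not itself used to choose the genes and was tested. It averages both groups, so a group mean that made the difference of a gene large also enters its level. It was taken as the average of both group means against 0 in limma with Benjamini-Hochberg adjustment. This test leaves out the spread of the reference, and it cannot tell a difference in level apart from a dye effect or from the unequal rounds of amplification. Over all probes 40.3% were above and 26.8% below the reference. Of the 10 member probes 4 were above, 2 below and 4 were not called. Relative to the array medians, which were 0.12 to 0.21 as deposited, the split over all probes was 6749 above and 6895 below, and 3 member probes were above and 2 below.

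Tmsb4x and both Actn4 probes were above the reference on 6 of 6 arrays. By limma, Tmsb4x was at 1.26 (SE 0.12, adjusted p = 0.000222), or 2.40-fold, and it stayed above after array medians were set to 0 (1.09, adjusted p = 0.000469). Actn4 was at 1.27 (SE 0.11, limma adjusted p = 0.000152) for probe 13155 and at 1.20 (SE 0.18, limma adjusted p = 0.00177) for probe 18479. The Actn4 probes that differed between groups in unlike ways thus both lay above the reference, and did so with medians at 0 (1.10 and 1.03).

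Crk was below the reference at -1.19 (SE 0.17, limma adjusted p = 0.00131) and on 5 of 6 arrays. Its strontium mean of -0.41 was much nearer to the reference than its cycloheximide mean of -1.96. Svil probe 176 was below at -0.60 (SE 0.10, limma adjusted p = 0.00232). As deposited, its 3 strontium arrays were above 0, so this came from the cycloheximide arrays. Relative to the array medians its strontium mean was -0.06 and its cycloheximide mean -1.49. Svil probe 19256 was above on 6 of 6 arrays at 0.36 (SE 0.09, limma adjusted p = 0.0141), but with array medians at 0 it was at 0.19 (limma adjusted p = 0.124). The other Svil probes and Rhob were not called: Rhob was at -0.04 (SE 0.13, limma adjusted p = 0.812), with its 3 cycloheximide arrays above 0 and its 3 strontium arrays below.

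To place the 5 genes in their pathway, 9 lists with 189 genes of the actin cytoskeleton were compared, of which 63 genes were measured by 91 probes naming 1 gene. None of these probes passed the test between groups. In the limma fit 9 had an unadjusted p under 0.05, but without the members it was 4 of 81 probes. Over all 6152 probes naming 1 gene the count was 375. Without the members, 32 of 58 genes (55.2%) were below 0, the median being -0.04. Over all 4742 genes with such probes 54.7% lay below 0 and the median was -0.03, so the wider lists lay close to that background. Groups were apart on the lower side for 9.88% of the probes without the members and on the higher side for 6.17%, against 6.14% and 5.66% over all probes naming 1 gene.

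**Figure D3:**
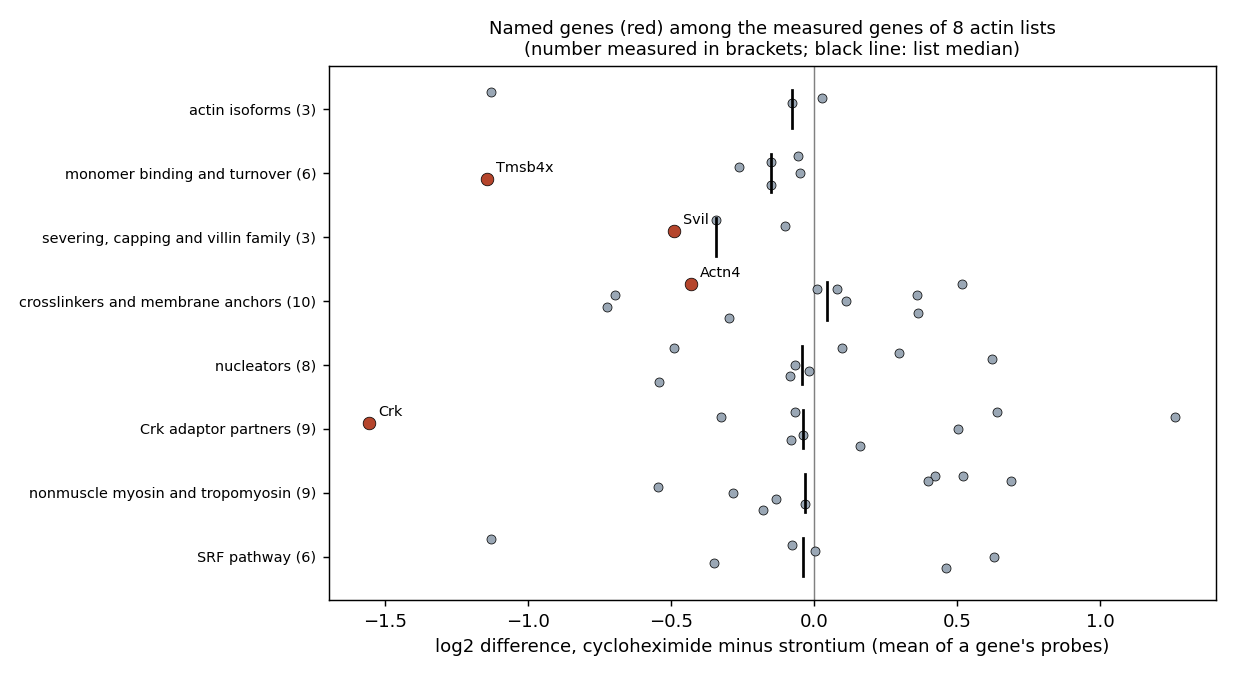
Log2 difference, cycloheximide minus strontium, as the mean of a gene's probes (horizontal axis) for the measured genes of 8 actin lists (vertical axis); red points are Crk, Svil, Tmsb4x and Actn4, grey points the other genes and black lines the list medians. Crk, Tmsb4x and Svil are the lowest genes of their lists. The medians of the 8 lists lie between -0.34 and 0.05. As the members were chosen on this difference, nothing is read from their place.

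The lists for monomer binding and for filament ends held few measured genes, and each includes a member chosen on this contrast. The 6 measured genes of monomer binding and turnover had differences below 0, with a median of -0.15, but Tmsb4x was the only one past -0.3. Cap1, which recycles monomers, was at -0.06 (SE 0.16), within its error as Tmsb10 was. Gmfb, a factor that debranches filaments, differed by -0.26 (SE 0.16). In the severing, capping and villin family Svil was measured beside Add3, which caps filaments at the membrane skeleton, at -0.34 (SE 0.41), and Capzb, a capping protein subunit, at -0.10 (SE 0.22). Both of these differences were within 1 SE of 0. Of 3 measured actin isoforms 2 were below 0. For cytoplasmic actin Actg1 the probes ranged from -0.47 (SE 0.30) to 0.42 (SE 0.27), and they may share sequence with other actin genes.

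Crosslinkers and nucleators were mixed. Of 10 crosslinkers and anchors, Actn4 included, 4 were below 0 (median 0.05). Groups were apart on the lower side for 4 of their 15 probes, Actn4 probe 13155 among them, and on the higher side for 0. Over all probes naming 1 gene these shares were 6.14% and 5.66%. Zyx, a focal adhesion protein, differed by -0.70 (SE 0.27) with its groups apart. Synpo, which bundles filaments, differed by 0.52 (SE 0.35) with overlap. The Zyx probe is on line 6, within the low numbers. Of 8 nucleators 5 were below 0 (median -0.04), with Abi1, a part of the WAVE complex, at -0.49 (SE 0.28) and Arpc2, a subunit of the Arp2/3 complex, at 0.62 (SE 0.42).

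Of the 9 measured genes of the list around Crk, which counts Crk itself, 5 were below 0 (median -0.04). Of 9 genes of nonmuscle myosin and tropomyosin 5 were below 0 (median -0.03), with Myh14, a myosin heavy chain, at -0.54 (SE 0.24) and Tpm3, a tropomyosin, at 0.62 (SE 0.26) for its probe 20649. In the list of the serum response factor, whose coactivators are held by free actin monomers, 3 of 6 genes were below 0 (median -0.04). Cnn1, a calponin, was at 0.27 ± 0.21 and -0.35 ± 0.10 (SD, n = 3), a difference of 0.63 (SE 0.19). Tagln2 differed more on its probe 3690, by 1.16 (SE 0.35) with its groups apart, but by -0.24 (SE 0.43) with overlap on its probe 21219. Mrtfa, one of those coactivators, was at -0.13 ± 0.21 and 0.22 ± 0.06 (SD, n = 3), a difference of -0.35 (SE 0.18).

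Fibroblasts and smooth muscle cells also express many of these genes, so their markers were read beside them. Col1a1, Mgp and Sparc were far below the reference in both groups. The list's median per array lay between -5.55 and -4.80 after cycloheximide and between -5.73 and -3.96 after strontium. Groups were apart for 0 of 3, against 6.04% of all probes on the lower side and 5.72% on the higher side. Markers of other cells were mixed in the limma fit. Of 3 oocyte probes 2 lay above the reference, and of 2 cumulus and granulosa probes 1 did. Of 4 blood probes 2 lay above and 2 below. Over all tested probes 40.3% lay above and 26.8% below, and so few marker probes cannot be told apart from these shares. The part of other cells in the differences was not tested further. In whole embryos, fewer cells of a type and less RNA per cell cannot be told apart.

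The genes whose probes followed a member most closely over the 6 arrays were found among up to 3673 probes that name 1 gene and vary by an SD of at least 0.3. For Crk they were Psd4 (Pearson r = 0.98) and Cutal (0.98), for Svil probe 176 Tmem215 (0.98) and Galnt11 (0.96), and for Tmsb4x Gadl1 (0.99) and Cdc40 (0.98). For Actn4 probe 13155 they were Pcolce2 (0.97) and Prpf31 (0.92), and for Rhob C1ql1 (0.98) and Kmt2c (0.98). With 6 arrays many probes passed an r of 0.9 for most members. There were 46 for Crk, 39 for Tmsb4x, 29 for Rhob, 17 for Svil probe 176 and 3 for Actn4 probe 13155. The probes of Cdc40 and Tmsb4x lie on the same line, 9, and that of Gadl1 on line 8. Psd4 lies on line 5, so some of these partners share the position in the numbering.

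Leaving out arrays one at a time shows how far each difference rested on 1 array. The difference of Crk ran from -1.78 to -1.29, that of Svil probe 176 from -1.54 to -1.33, that of Tmsb4x from -1.30 to -1.01 and that of Rhob from 0.64 to 0.97. Actn4 probe 13155 stayed between -0.79 and -0.52. For Svil probe 12047 the range was -1.19 to -0.45. Svil probes 4753 and 19256 and Actn4 probe 18479 changed sign with some array left out, so no direction can be given for them. For the probes whose groups did not overlap, leaving out an array cannot change the sign. As the members were chosen on this contrast, a kept sign is no evidence for a direction.

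**Figure D4:**
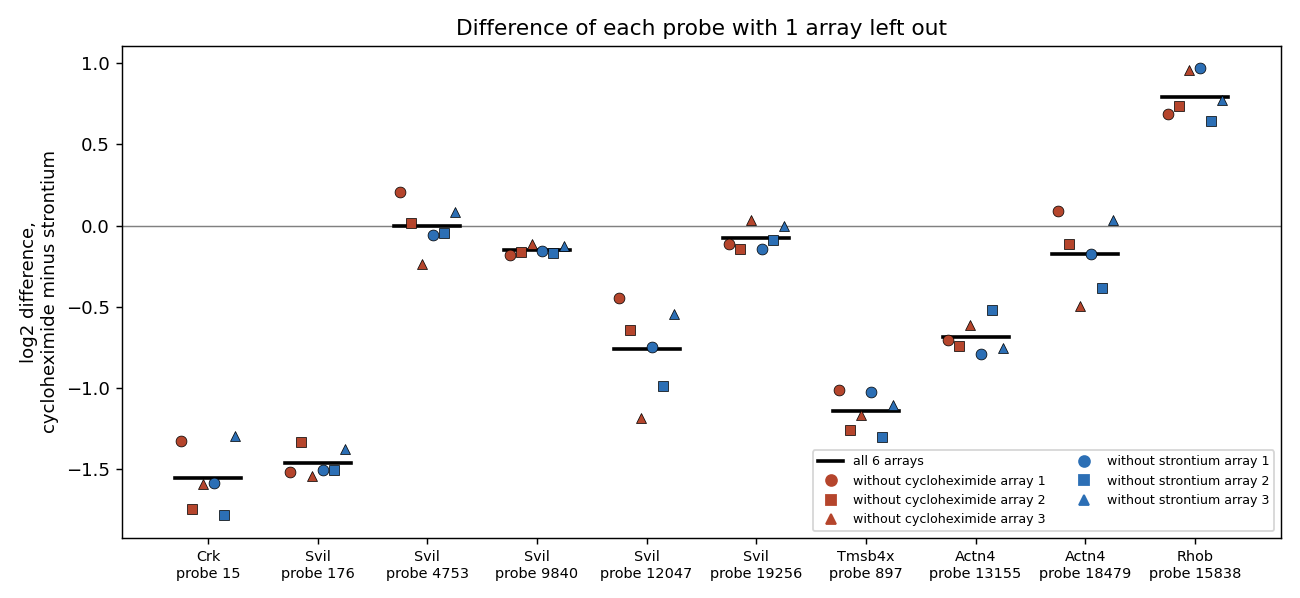
Log2 difference, cycloheximide minus strontium (vertical axis), of the 10 member probes (horizontal axis) over all 6 arrays (black bar) and with each array left out in turn (coloured points). Crk, Svil probes 176, 9840 and 12047, Tmsb4x and Actn4 probe 13155 stay below 0 and Rhob above it. Svil probes 4753 and 19256 and Actn4 probe 18479 fall on both sides. Where the groups do not overlap, leaving out an array cannot change the sign, so nothing is read from a kept sign.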

How the data were processed

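Each of the 6 Agilent arrays carried embryo RNA (Cy3, amplified in 2 rounds) and reference RNA (Cy5, amplified in 1 round), per the labels' protocols. The authors deposited log10 ratios of the channels, which end at -2 and 2. The submitters' processing notes name Agilent Feature Extraction; its version, background and dye settings were not given in the sources used here. For this report the sign was turned and the unit changed to log2 (a factor of 3.32). Spot intensities were not used, so how far a signal stood above background is unknown, and the small number of arrays limits precision.

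The supplied platform annotation gave 1 gene for 6249 of 22132 probes, several for 9389 and none for 6494; 6179 of the first kind matched the RefSeq gene table (GRCm38.p6), used for names alone. After removal of 211 probes that were at exactly 0 throughout, 21921 were tested. Limma 3.58.1 in R 4.3.3 fitted 1 mean per group to the values as deposited, with contrasts for the difference and for the average level. P-values were adjusted by Benjamini-Hochberg over every tested probe (threshold 0.05). The fit was tested on simulated data. Python 3.11.15, pandas 2.3.3, NumPy 2.4.6 and matplotlib 3.10.9 prepared values and plots.

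The members and lists were chosen with earlier results of these data known. The values of 1 of the 9 lists are not reported here on their own. Named genes were all member probes, the non-member of each list with the smallest p on each side, close relatives of a member, and the 2 probes per member with the highest Pearson r. Tagln2 was added for the size of its difference, and Cap1, Capzb and the marker genes were named outside this rule. Alternatives were a replicate block, median centring, equal spread, quantile normalization, line medians, 3 probe filters, array weights and leaving out each array. For the member genes with several probes the average of the gene's probes was a further alternative.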

Additional observations from a re-analysis of the deposited data

How the results depend on the processing

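The count of 0 probes past the adjusted threshold between groups held under every alternative except array weights, which called 359 (135 lower, 224 higher), among them Svil probe 176 and no other member probe; the weight was 22.6 for cycloheximide array 2 but 0.16 for cycloheximide array 3, and the cause of the change was not tested. At an unadjusted p under 0.05 there were 1319 probes (508 lower and 811 higher), 2086 with the replicate block (864 and 1222), 7232 with array weights (4368 and 2864) and 4242 without array 3 of cycloheximide (2821 and 1421), so the larger side turned in the last 2 of these; the count was 748 to 1393 without any other array. With the block 0 probes passed; arrays of equal number had correlations of 0.056, 0.379 and 0.501 between their deviations from the group means, against 0.457 for cycloheximide 1 with strontium 2, so the numbers were not taken as pairs. The 157 alternative differences of member probes include the average of a gene's probes in place of each probe of Svil and Actn4. Of these 157, 11 changed sign, all in Svil probes 4753 and 19256 and Actn4 probe 18479. By more than the SD between arrays 8 moved, all with array weights or with that average. With array weights Crk was at -1.08 and Svil probe 176 at -1.67. The number of member probes below 0 was 6 without array 3 of strontium, against 9. Of 150 alternative levels, 3 lost their call, all of Svil probe 19256 (with centred medians, with equal spread, and without array 2 of cycloheximide). Of the 63 list genes 33 to 38 lay below 0 across 14 alternatives, array weights not among them, and 51 of 91 probes taken singly. Signal over background was not analysed here.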
